A study of Homo sapiens with 6 samples.

Results

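SNAI1, SNAI2, SNAI3, TWIST1, TWIST2, ZEB1, ZEB2, PRRX1 and TCF4, transcription factors of the epithelial to mesenchymal transition (EMT), were followed in COV434 cells with and without BRG1. They were taken by gene symbol and are 9 of the 19899 genes in the count table. COV434, an established line from the ovary, stands in the study for SCCOHT, the hypercalcemic small cell carcinoma of the ovary. That tumor lacks BRG1, the SWI/SNF chromatin remodeling ATPase encoded by SMARCA4. Parental cells received a control plasmid, pCDNA3-neo (Control, n = 3), or the plasmid PBJ5-BRG1 (BRG1, n = 3). Both groups were co-transfected with pBABE-puro for puromycin resistance, were selected with 2 to 3 µg/ml puromycin from 24 hours after transfection and were collected after 3 days. Every sample came from this 1 cell line, and the labels number the samples 1 to 3 in each group without saying whether they were separate cultures, so p-values measure the spread between these samples.

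EMT is the program by which epithelial cells loosen their junctions and take on the shape and motility of mesenchymal cells. The SNAIL zinc finger proteins (SNAI1, SNAI2 and SNAI3) and the ZEB zinc finger proteins (ZEB1 and ZEB2) bind E-box sequences and repress epithelial genes such as E-cadherin. TWIST1 and TWIST2 are basic helix-loop-helix proteins that pair with E proteins, of which TCF4 is one, and PRRX1 is a homeobox factor of mesenchymal cells. TCF4 is meant here as the E protein, not the Wnt effector TCF7L2 that shares the alias.

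The E-box favored by SNAIL and ZEB proteins, CAGGTG on either strand, was searched in RefSeq promoter windows (GRCh38.p14, 250 bases before to 50 bases after each start). It was present in 7231 of 35116 windows, or 20.6%. Windows were matched for 5 of the 9 factors, and of their 20 windows the 2 with the motif both belonged to ZEB1. Among epithelial genes known as targets of these repressors, 12 of 22 were matched and 11 of their 16 windows (68.8%) held it. Those windows belonged to 9 genes, since a gene can have more than 1 window. The genes were listed as targets of proteins that bind this motif, so a high share can follow from that choice. The stretch upstream of the first ZEB1 start, at chr10:31318167-31318416 on the plus strand, is shown because it holds the motif that the ZEB proteins bind, in capitals, at position -57 from the start. Below it stand 4 sites of 30 bases, with each motif in capitals, from epithelial genes whose values are described later. DSP (desmoplakin, chr6:7541574-7541603) and OCLN (occludin, chr5:69492502-69492531) lie on the plus strand, and MUC1 (mucin 1, chr1:155192973-155193002) and CLDN7 (claudin 7, chr17:7262456-7262485) on the minus strand. A match is a description of these letters and not a measured binding site.
ZEB1: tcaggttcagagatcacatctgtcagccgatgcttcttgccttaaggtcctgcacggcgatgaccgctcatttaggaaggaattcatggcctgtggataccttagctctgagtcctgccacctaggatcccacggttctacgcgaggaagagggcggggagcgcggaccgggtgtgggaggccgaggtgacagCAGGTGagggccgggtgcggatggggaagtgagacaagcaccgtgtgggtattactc
DSP: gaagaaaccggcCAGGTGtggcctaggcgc
OCLN: ccatccgagtttCAGGTGaattggtcaccg
MUC1: tttgtCACCTGtCACCTGctccggctgtgc
CLDN7: cctgtccgcccgCACCTGctggctcacctc

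The libraries held 29699741 to 63613710 estimated counts, with BRG1 sample 3 the shallowest, and mitochondrial genes took 4.13% to 6.00% of them. SMARCA4, the transfected gene, had a normalised count (the count divided by the library's DESeq2 size factor) that averaged 1551 ± 119 in Control against 88773 ± 17220 (SD, n = 3 each) with BRG1, plasmid transcripts included. BRG1 sample 3 was the lowest BRG1 sample for 1415 of the 1764 genes called higher (80.2%). Of 8 granulosa cell markers, FOXL2 and FSHR were at 3 counts or fewer in every sample. All 8 together summed to 1027 to 1217 normalised counts in Control and 1799 to 2848 in BRG1 samples, with 2 called higher. The summed level of the endothelial markers PECAM1, CDH5, KDR, VWF and TEK was 1731 to 2641 in Control and 6422 to 6839 in BRG1 samples, with 3 of 5 called higher. Most of that rise was VWF, whose mean went from 44.8 in Control to 3498 with BRG1. KDR (mean 1785 in Control and 1961 with BRG1) and PECAM1 overlapped between groups and were not called. Both sets of calls stand beside 11.0% of all tested genes called higher. The part of these markers in the results below was not tested.

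SNAI2 and ZEB2 rose with BRG1, and no factor passed the test in the lower direction. A gene was called when its DESeq2 adjusted p was under 0.05, a rule that called 11.0% of 15991 tested genes higher and 1.84% lower. Of the 9 factors, 8 had a count and were tested and 2 were called higher. A count of 2 in 8 is near what 11.0% gives, so it describes SNAI2 and ZEB2 and not the factors as a group. The same 2 factors were called and none lower by edgeR, which called 9.57% of 14246 genes higher and 1.02% lower, and no other factor had an unadjusted DESeq2 p under 0.05. Blocking on the replicate number left both calls and added none, while DESeq2 called 13.4% of genes higher and 6.62% lower and edgeR 13.7% and 5.68%. These were also the only factors whose 3 BRG1 values all lay above the 3 Control values, as did those of 16.7% of the genes tested, and none lay wholly below, as did 9.92%. In bulk RNA, a change in the number of cells that express a gene and a change in RNA per cell cannot be told apart.

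**Figure D1:**
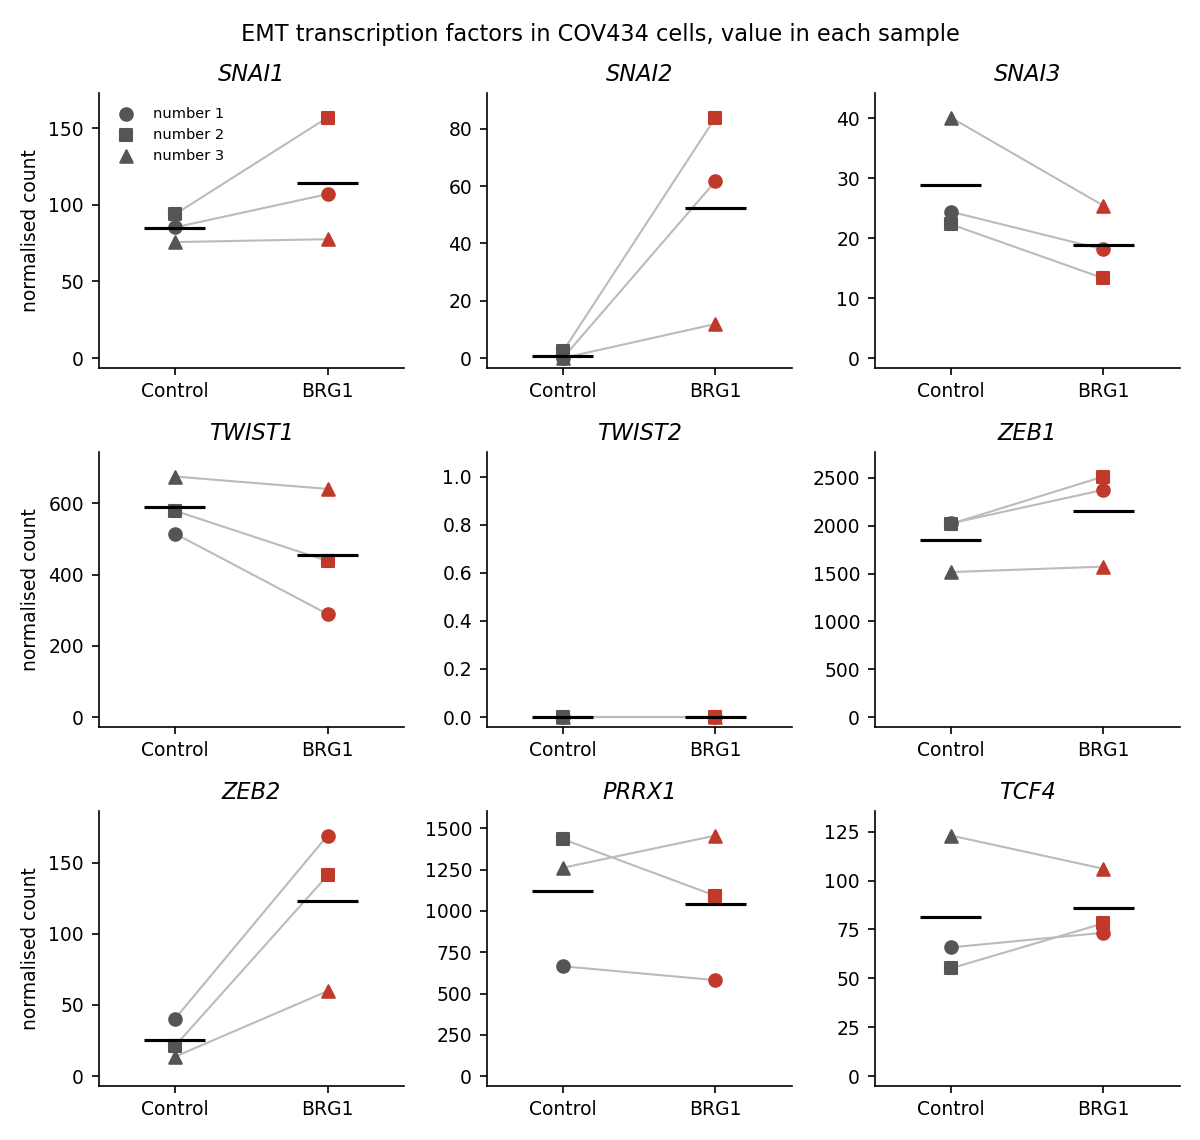
Normalised count (vertical axis, linear, a separate scale for each gene) of the 9 factors in the 3 Control samples (gray) and the 3 BRG1 samples (red). Symbols mark the replicate number, gray lines join samples of the same number and black bars are group means. SNAI2 and ZEB2 are the only panels in which all red points lie above all gray points, and TWIST2 is at 0 throughout.

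SNAI2, or SLUG, the SNAIL repressor also known from neural crest and melanocyte development, is encoded on the minus strand of chromosome 8 (GRCh38, 48917598 to 48921740). Its normalised count was 0, 2.35 and 0 in Control samples 1 to 3 and 61.7, 83.9 and 11.9 in BRG1 samples 1 to 3. The groups did not overlap, although BRG1 sample 3 was far below the other BRG1 samples. Exons of another annotated gene cover 3.69% of the SNAI2 exon bases. The Control total was 2 counts and the BRG1 total 194, a depth-adjusted ratio of 89.3 with an exact 95% interval of 24.4 to 743 that covers counting error only. The adjusted p was 3.8e-05 by DESeq2 and 0.0108 by edgeR. The fitted log2 fold change, 6.23 ± 1.32 (SE), depends on how the tool treats the Control zeros, and it was 8.22 without Control sample 2, 5.47 without Control sample 3 and 5.71 without Control sample 1.

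SNAI1, or SNAIL, the founding repressor of the family, is encoded on the plus strand of chromosome 20 (49982980 to 49988886). Its normalised count was 85.3, 93.8 and 75.7 in Control and 107, 157 and 77.6 in BRG1 samples. BRG1 sample 3 fell within the Control range, so the groups overlapped. Its change of 0.43 ± 0.35 (SE) on the log2 scale had a 95% interval of -0.25 to 1.12 and a DESeq2 adjusted p of 0.582.

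SNAI3, the least studied SNAIL protein (chromosome 16, 88677688 to 88686507, minus strand), counted 24.4, 22.3 and 40.1 normalised counts in Control and 18.1, 13.3 and 25.4 in BRG1 samples. Each BRG1 sample was below the Control sample of its own number, but the groups overlapped. DESeq2 gave a log2 fold change of -0.65, with a 95% interval of -1.74 to 0.44 and an adjusted p of 0.616. The libraries do not keep strand, and 10.2% of its exon bases also lie in exons of SNAI3-AS1, so its value may include antisense transcripts.

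ZEB2, the ZEB protein also known as SIP1 for its binding to SMAD proteins, is encoded on the minus strand of chromosome 2 (144364364 to 144521057). Its normalised count was 40.2, 21.1 and 13.6 in Control and 169, 141 and 59.7 in BRG1 samples. The lowest BRG1 value stood above the highest Control value, and sample 3 was the lowest in both groups. Within numbers 1 to 3 the BRG1 sample was 4.20, 6.69 and 4.38 times its Control sample. On the log2 scale the rise was 2.33 ± 0.55 (SE), with an adjusted p of 3.3e-04 by DESeq2 and 0.0307 by edgeR. Exons of other genes, ZEB2-AS1 among them, cover 4.97% of its exon bases.

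ZEB1, the other ZEB repressor (chromosome 10, 31318495 to 31529814, plus strand), had by far the higher count of the pair. Its normalised count was 2026, 2020 and 1516 in Control and 2376, 2515 and 1573 in BRG1 samples. BRG1 sample 3 lay inside the Control range. The BRG1 sample was 1.17, 1.24 and 1.04 times its Control sample within numbers 1 to 3. Its log2 fold change was 0.22 with a 95% interval of -0.24 to 0.68 and a DESeq2 adjusted p of 0.725. Antisense ZEB1-AS1 covers 4.58% of its exon bases.

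TWIST1 (chromosome 7, 19020991 to 19117636, minus strand), a regulator of mesoderm and of cranial development, had normalised counts of 515, 579 and 675 in Control and 289, 438 and 640.3 in BRG1 samples. BRG1 samples 1 and 2 were below all Control samples and BRG1 sample 3 was not. Within numbers 1 to 3 the BRG1 level was 0.560, 0.756 and 0.949 times the Control level. Over all samples its log2 fold change was -0.38, with a 95% interval of -0.98 to 0.22 and a DESeq2 adjusted p of 0.585. Without BRG1 sample 3 it was -0.70, with a DESeq2 adjusted p of 0.0479. Exons of another annotated gene cover 7.06% of its exon bases.

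TWIST2 (chromosome 2, 238848032 to 238910534, plus strand) had 0 counts in all 6 samples. A count of 0 allows up to 3 counts, or 2.18 to 4.48 normalised counts depending on the sample's depth.

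PRRX1 (chromosome 1, 170662728 to 170739421, plus strand) varied more between numbers than between groups. Its normalised count was 665, 1435 and 1262 in Control and 581, 1092 and 1457 in BRG1 samples. Sample 1 was the lowest in both groups. Between the groups it differed by -0.10 on the log2 scale, with a 95% interval of -0.86 to 0.65 and a DESeq2 adjusted p of 0.942.

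TCF4 (chromosome 18, 55222185 to 55664787, minus strand) had normalised counts of 65.8, 55.1 and 123 in Control and 73.3, 78.1 and 106 in BRG1 samples. Sample 3 was the highest in both groups. Its log2 difference was 0.06, with a 95% interval of -0.75 to 0.86 and a DESeq2 adjusted p of 0.971.

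**Figure D2:**
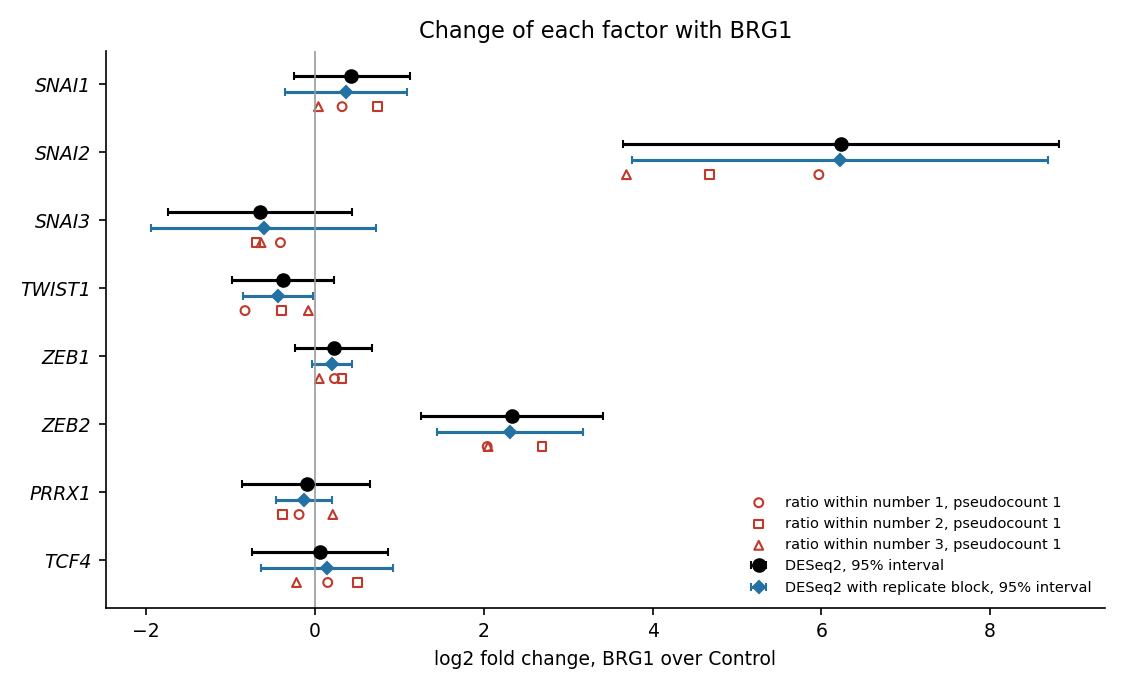
Log2 fold change of BRG1 over Control (horizontal axis) for the 8 factors with a count. Black circles are the DESeq2 estimates and blue diamonds those with the replicate number as a block, both with 95% intervals, and open red symbols are the ratios within each number on the log2(normalised count + 1) scale. The intervals of SNAI2 and ZEB2 lie above 0, those of the other 6 factors cross 0 without the block, and the blocked interval of TWIST1 ends just below 0 with an adjusted p of 0.144.

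The numbers accounted for much of the spread. The sum of squares of log2(normalised count + 1) over the 6 samples was split between group, replicate number and remainder. Over 14220 genes the median shares were 23.9%, 50.6% and 11.1%. The share between groups was 84.5% for SNAI2 and 76.2% for ZEB2. It was between 1.5% and 39.5% for the other 6 factors with a count, whose share between numbers ran from 57.2% for SNAI1 to 92.8% for PRRX1.

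Levels of different factors were set side by side as normalised counts per kilobase of 1 representative transcript. Dividing by that length is approximate, because the lengths the authors used in scaling are not in the table. In Control samples TWIST1 (362 ± 49.2 per kilobase, SD, n = 3), ZEB1 (312 ± 49.3, SD, n = 3) and PRRX1 (276 ± 99.5, SD, n = 3) were the most abundant, and each overlapped the next in this order. SNAI1 followed at 49.8 ± 5.31, SNAI3 at 16.6 ± 5.61 and TCF4 at 10.1 ± 4.57 (SD, n = 3), and SNAI3 and TCF4 overlapped. ZEB2 at 2.70 ± 1.48 and SNAI2 at 0.359 ± 0.621 (SD, n = 3) were the lowest of the 8 with a count.

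In BRG1 samples ZEB1 (363 ± 85.6), TWIST1 (279.5 ± 108) and PRRX1 (257 ± 108, per kilobase, SD, n = 3) still led, again with overlap between neighbors. SNAI1 stood at 66.7 ± 23.6, above SNAI2 at 24.1 ± 16.9, which overlapped ZEB2 at 13.3 ± 6.13 (SD, n = 3). SNAI3 at 10.9 ± 3.49 and TCF4 at 10.7 ± 2.20 (SD, n = 3) overlapped each other and ZEB2. Per kilobase, ZEB2 made up 0.831% ± 0.370 of ZEB1 and ZEB2 together in Control (SD, n = 3) against 3.40% ± 0.995 with BRG1 (SD, n = 3). SNAI2 made up 0.639% ± 1.11 of SNAI1 and SNAI2 together in Control (SD, n = 3) against 23.8% ± 11.3 with BRG1 (SD, n = 3), with 31.1%, 29.5% and 10.7% in BRG1 samples 1 to 3. Both called factors thus remained the scarcer one of their pair in every BRG1 sample.

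**Figure D3:**
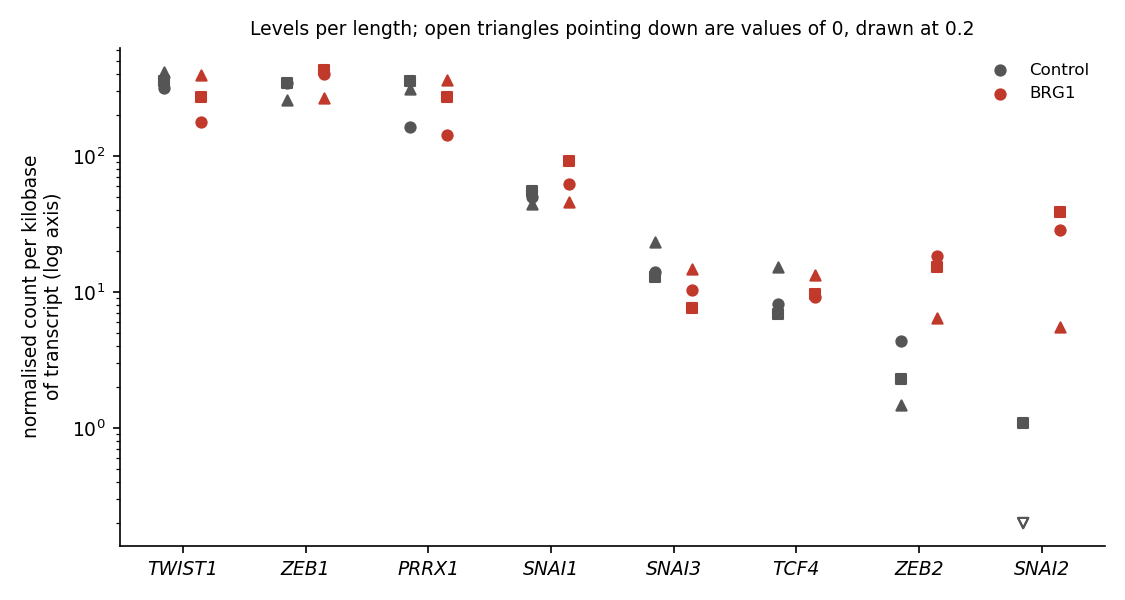
Normalised count per kilobase of transcript (vertical log axis) of the 8 factors with a count, ordered by their Control mean, in Control (gray) and BRG1 (red) samples. Circles, squares and upright triangles are replicate numbers 1, 2 and 3, and values of 0 are open inverted triangles drawn at 0.2. TWIST1, ZEB1 and PRRX1 stand highest in both groups, while ZEB2 and SNAI2 have the 2 lowest Control means, 2.70 and 0.359.

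The genes whose values over the 6 samples lay closest to those of SNAI2 and ZEB2 were found by the root mean square difference of centered log2(normalised count + 1) among 14219 genes. For SNAI2 they were CYP4F11 (difference 0.37), a cytochrome P450, HRCT1 (0.40) and TLR4 (0.44), the receptor for bacterial lipopolysaccharide. For ZEB2 they were SIPA1L2 (0.14), EGFR (0.18), the epidermal growth factor receptor, and CYP26A1 (0.19), which breaks down retinoic acid. EGFR, for instance, had normalised counts of 164, 64.5 and 55.3 in Control and 611, 605 and 261 in BRG1 samples.

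The partners of the helix-loop-helix factors were too few for a count of calls to be set apart from the 11.0% of all genes called higher and 1.84% called lower. The list held the E proteins TCF3 and TCF12 and the inhibitors ID1 to ID4, which bind E proteins and keep them from DNA, and 0 of 6 were called by DESeq2 or edgeR or had an unadjusted DESeq2 p under 0.05. TCF3 counted 7549, 7263 and 7401 in Control and 5674, 6689 and 6637 in BRG1 samples, with a DESeq2 adjusted p of 0.334 although the groups did not overlap. TCF12 stood between 3479 and 3872 in all samples.

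ID1 had normalised counts of 12715, 11779 and 831 in Control and 13139, 16048 and 929.9 in BRG1 samples. ID2 had 15818, 11427 and 923 in Control and 12967, 12722 and 882 in BRG1 samples. In sample 3 of each group both genes were thus far below samples 1 and 2, whose mean was 14.7 times sample 3 in Control and 15.7 times in BRG1 for ID1, and 14.8 and 14.6 times for ID2. The same ratio was 2.91 and 2.87 for ID3, and 1.04 and 1.09 for ID4. The share of the spread between numbers was 99.4% for ID1, 99.7% for ID2 and 99.1% for ID3. Sample 3 of each group was also the lowest of its group for SNAI1, ZEB1 and ZEB2 and the highest for TCF4, SNAI3 and TWIST1, but by smaller ratios. Why number 3 stood apart was not tested.

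**Figure D4:**
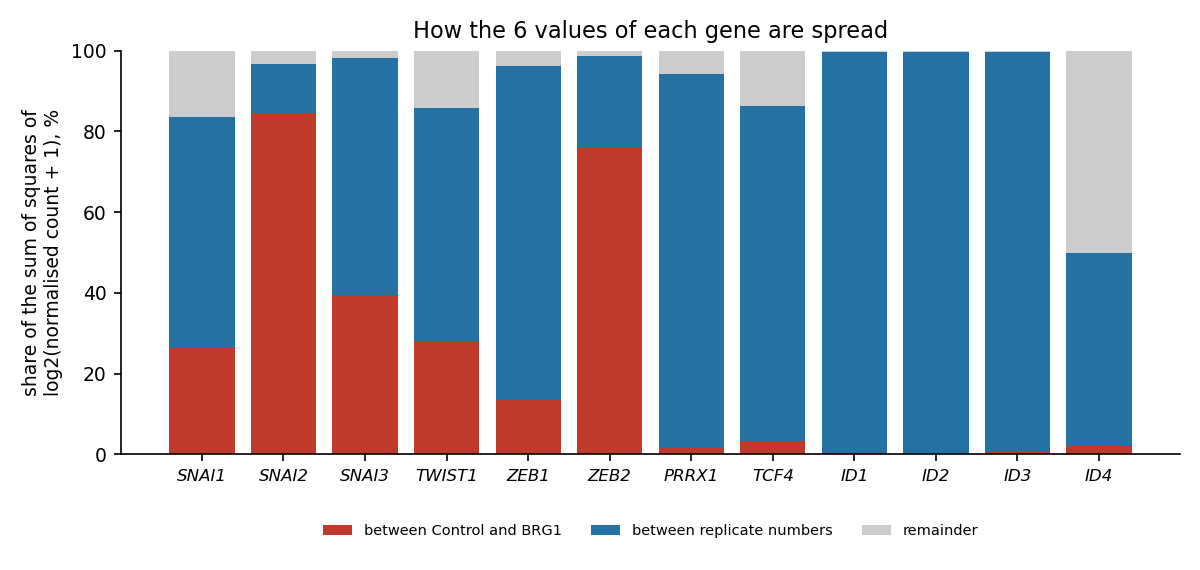
Share of the sum of squares of log2(normalised count + 1) over the 6 samples (vertical axis, %) that lies between Control and BRG1 (red), between replicate numbers (blue) or in neither (gray). The red part is the largest only for SNAI2 (84.5%) and ZEB2 (76.2%), while ID1, ID2 and ID3 are almost wholly blue.

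The cofactors through which SNAIL and ZEB proteins repress were called at about the share of all genes, 11.0% higher and 1.84% lower. Of 19 corepressors and chromatin cofactors, DESeq2 called 2 higher and 0 lower, edgeR called 1 higher and 0 lower, and 3 higher and 0 lower had an unadjusted DESeq2 p under 0.05. Their median log2 fold change was -0.07, beside -0.01 over all 15991 genes tested. LOXL2, a lysyl oxidase that interacts with SNAIL, rose from 635, 704 and 698 in Control to 4399, 3534 and 2033 in BRG1 samples, or 2.29 ± 0.28 (SE) on the log2 scale (DESeq2 adjusted p = 1.8e-14). AJUBA, a LIM protein that bridges SNAIL to its corepressors, counted 1447, 1436 and 1307 in Control and 2416, 2466 and 1651 in BRG1 samples, with a log2 fold change of 0.64 and an adjusted p of 0.0139 by DESeq2 but 0.0567 by edgeR. Blocked on the replicate number, DESeq2 also called 2 cofactors lower, the deacetylase HDAC2 (log2 fold change -0.37, adjusted p = 0.0181) and the Polycomb methyltransferase EZH2 (-0.38, adjusted p = 0.0178), which were singled out after their values were seen. The blocked edgeR fit called EZH2 but not HDAC2 (adjusted p = 0.0625), and 6.62% of all genes were called lower by DESeq2 with the block.

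Of 13 kinases and ubiquitin ligases that set the turnover of SNAIL protein, 0 were called in either direction by DESeq2 or edgeR. Over all genes DESeq2 called 11.0% higher and 1.84% lower. Of the 13, 0 had an unadjusted DESeq2 p under 0.05, and the median log2 fold change was -0.13. With the replicate block DESeq2 called 6.62% of all genes lower and 3 of these 13, again singled out after their values were seen. They were GSK3B (log2 fold change -0.37), the kinase that marks SNAIL for degradation, PAK1 (-0.31), a kinase that phosphorylates SNAIL, and SIAH1 (-0.34), a ubiquitin ligase, with DESeq2 adjusted p of 0.0199, 0.0348 and 0.0481. The blocked edgeR fit called GSK3B and PAK1 but not SIAH1 (adjusted p = 0.0632).

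Among 17 upstream signals and inducers of the factors, DESeq2 called 6 higher and 0 lower, edgeR called 5 higher, and the median log2 fold change was 0.37. Over all genes DESeq2 called 11.0% higher and 1.84% lower, and edgeR 9.57% and 1.02%. SMAD3, a transcription factor downstream of the TGF-beta receptors, rose from 574, 451 and 509 in Control to 5397, 3490 and 1684 in BRG1 samples (log2 fold change 2.79 ± 0.37 SE, DESeq2 adjusted p = 2.0e-12). TGFBR2, the receptor that binds TGF-beta, rose from 278, 369 and 296 to 1161, 1138 and 625 (1.64 ± 0.28 SE, DESeq2 adjusted p = 1.7e-07). BMP4, a ligand of the same superfamily, rose from 347, 291 and 433 to 1369, 675 and 824 (1.42 ± 0.31 SE, DESeq2 adjusted p = 6.3e-05). These genes were named among those whose groups did not overlap. HIF1A, the hypoxia-inducible factor, was singled out after its values were seen. DESeq2 also called HIF1A (adjusted p = 0.0290, but 0.121 by edgeR and 0.0207 by edgeR with the replicate block). Its groups overlapped, at 4072, 4111 and 3317 in Control and 10699, 8332 and 3837 in BRG1 samples.

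Of 17 other transcription factors linked to EMT, 12 had an adjusted p, and of these DESeq2 called 4 higher and 0 lower and edgeR 3 higher, with a median log2 fold change of 0.61. These counts stand beside 11.0% higher and 1.84% lower over all genes by DESeq2, and 9.57% and 1.02% by edgeR. SOX9, a factor of progenitor cells and of cartilage and gonad development, rose from 56.0, 34.0 and 14.4 in Control to 4211, 2414 and 1072 in BRG1 samples, or 6.22 ± 0.53 (SE) on the log2 scale (DESeq2 adjusted p = 5.5e-30). FOXC2, a forkhead factor of mesoderm and lymphatic development, rose from 3.65, 2.35 and 2.27 to 329, 169 and 16.4, with a DESeq2 adjusted p of 8.9e-09 and a wide spread within BRG1. SOX4 rose from 82.8, 71.5 and 37.1 to 432, 253 and 148 (log2 fold change 2.13 ± 0.46 SE, DESeq2 adjusted p = 6.4e-05).

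Calls of epithelial genes are read beside the DESeq2 shares over all genes, 11.0% higher and 1.84% lower, at which lists of this size hold few or no lower calls. Of 15 epithelial transcription and splicing factors that oppose EMT, 13 had an adjusted p, DESeq2 called 4 higher and 0 lower, edgeR called 3 higher, and the median log2 fold change was 0.90. KLF5, a Krüppel-like factor of epithelia, rose from 267, 177 and 119.6 in Control to 3838, 2481 and 1210 in BRG1 samples (log2 fold change 3.74 ± 0.42 SE, DESeq2 adjusted p = 4.5e-17). EHF, an ETS factor of epithelia, rose from 1.22, 4.69 and 0.757 in Control to 89.9, 46.5 and 40.3 in BRG1 samples (4.83 ± 0.84 SE, DESeq2 adjusted p = 1.7e-07). ELF3, another ETS factor of epithelia, rose from 7.31, 25.8 and 4.54 to 181, 129 and 44.8 (3.27 ± 0.72 SE, DESeq2 adjusted p = 9.9e-05). The size of both folds rests on low Control counts. OVOL1, OVOL2, GRHL2 and ESRP1 did not exceed 5.97 normalised counts in any sample, and ESRP2 reached 25.4 in BRG1 sample 3. GRHL2 and ESRP1 had no adjusted p, OVOL1, OVOL2 and ESRP2 did not pass the DESeq2 test, and edgeR tested none of these 5. The BRG1 values of OVOL2, 4.35, 4.98 and 5.97, lay above its Control values of 0, 1.17 and 1.51 (DESeq2 adjusted p = 0.390). At this depth a change in the 5 was hard to detect.

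Of 22 epithelial genes known as repressed targets of the factors, 19 had an adjusted p, DESeq2 called 7 higher and 0 lower and edgeR 5 higher, with a median log2 fold change of 0.47. KRT8, a keratin of simple epithelia, rose from 29.2, 27.0 and 15.1 in Control to 1392, 796 and 394 in BRG1 samples (log2 fold change 5.20 ± 0.47 SE, DESeq2 adjusted p = 3.3e-26). PKP2, a desmosome protein, rose from 107, 129 and 123 to 3282, 2072 and 1187 (4.19 ± 0.35 SE, DESeq2 adjusted p = 9.3e-31). CLDN1, a tight junction protein, rose from 225, 263 and 288 to 3197, 1863 and 672 (2.89 ± 0.46 SE, DESeq2 adjusted p = 6.0e-09). CDH1, which encodes E-cadherin, had normalised counts of 3.65, 57.5 and 3.79 in Control and 31.2, 8.31 and 23.9 in BRG1 samples, with no order between the groups and a DESeq2 adjusted p of 0.995. EPCAM had at most 1.17 normalised counts in any sample.

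The calls among these targets were also counted by the E-box in their promoter windows, a count made after their values were seen and given with no test. Over all genes DESeq2 called 11.0% higher. Of the 9 genes with CAGGTG in a window, 8 had an adjusted p and 2 were called higher by DESeq2. They were DSP (log2 fold change 1.75, adjusted p = 2.9e-10) and MUC1 (0.76, adjusted p = 0.0325 by DESeq2 but 0.131 by edgeR), both shown above with their sites. Of the 3 genes whose windows lacked it, CLDN1, CLDN4 and KRT8, DESeq2 called all 3 higher and edgeR called 2, with CLDN4 at an edgeR adjusted p of 0.0645. Of the 10 genes not matched to a window, 8 had an adjusted p and 2 were called higher by both tools. These sets were too small for their shares to be set apart from each other or from that of all genes. OCLN had normalised counts of 2952, 3009 and 3043 in Control and 2839, 3554 and 2984 in BRG1 samples (DESeq2 adjusted p = 0.910), and CLDN7 had at most 6.09 in any sample.

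Of 26 mesenchymal genes listed, DESeq2 called 11 higher and 0 lower and edgeR 8 higher, beside 11.0% higher and 1.84% lower over all genes by DESeq2, and 15 did not pass, with a median log2 fold change of 0.77. SPARC, a matrix glycoprotein, rose from 156, 145 and 166 in Control to 38532, 20691 and 11696 in BRG1 samples (log2 fold change 7.25 ± 0.38 SE, DESeq2 adjusted p = 6.1e-79). MMP2, a matrix metalloprotease, rose from 30.5, 38.7 and 22.7 to 2225, 1570 and 1079 (5.75 ± 0.34 SE, DESeq2 adjusted p = 1.0e-60).

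The mesenchymal genes most often paired with loss of E-cadherin did not pass the test. VIM (vimentin) had normalised counts of 1504, 1216 and 1458 in Control and 2416, 1857 and 1434 in BRG1 samples (DESeq2 adjusted p = 0.241, unadjusted 0.0498). CDH2 (N-cadherin) had 330.1, 408 and 528 in Control and 445, 559 and 575 in BRG1 samples (DESeq2 adjusted p = 0.551, unadjusted 0.194). FN1 (fibronectin) had 319, 524 and 881 in Control and 1240, 978 and 878 in BRG1 samples (DESeq2 adjusted p = 0.111, unadjusted 0.0176). With the replicate block DESeq2 called 1 mesenchymal gene lower, beside 6.62% of all genes. It was POSTN (periostin), singled out after its values were seen, with a log2 fold change of -0.64 and an adjusted p of 9.3e-04. In the mesenchymal list 14 rises and 1 fall had an unadjusted DESeq2 p under 0.05. In the other 7 lists 0 falls did, and edgeR without the block called 0 genes of any list lower. With the block edgeR called 4 lower, EZH2 (adjusted p = 0.0335), GSK3B (0.0332), PAK1 (0.0389) and POSTN (0.0228). Of the 34 genes called higher over all lists, 32 (94.1%) had their lowest BRG1 value in BRG1 sample 3, beside 80.2% of all 1764 genes called higher.

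**Figure D5:**
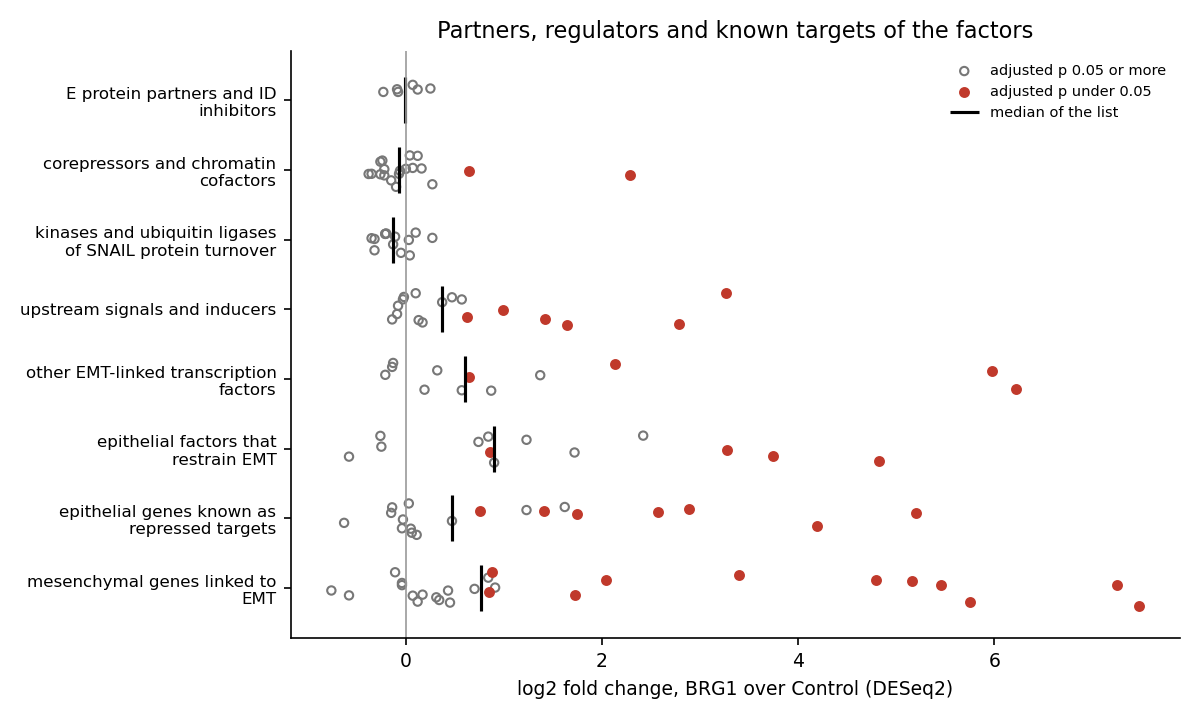
Log2 fold change of BRG1 over Control by DESeq2 (horizontal axis) for each gene with an adjusted p in the 8 lists, spread vertically only to separate points. Filled red points have an adjusted p under 0.05, open gray points do not, and black bars are list medians. All filled points lie to the right of 0, and the first 3 lists, partners, cofactors and turnover enzymes, hold only 2 of them.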

How the data were processed

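RNA-seq was made from 3 Control and 3 BRG1 samples of COV434 cells, as unstranded poly(A) libraries from 500 ng RNA, read as pairs of 78 bases. Per the labels and the study's methods, the authors used FastQC 0.11.5, STAR 2.5.3a, Salmon 0.8.2 with GENCODE release 24 (hg38) and tximport. What the authors deposited is a table of estimated counts, 1 row per gene symbol, in which tximport turned TPM into counts with its lengthScaledTPM option, so values need not be whole. Reads shared by overlapping genes or near-identical copies are divided by Salmon's model.

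The estimated counts of all 19899 genes were rounded, and genes with a count were fitted with DESeq2 1.42.0 in R 4.3.3 (Wald test, BRG1 against Control, median-ratio size factors, Benjamini-Hochberg adjustment over all genes), as the study's methods name DESeq2. Adjusted p left empty by DESeq2 stayed empty. edgeR 4.0.16 (quasi-likelihood, TMM) and limma-voom 3.58.1 were alternatives, with TMM factors in DESeq2, a filter of 10 counts in 3 samples, a replicate block, a threshold of 0.01, other lengths or scalings for the levels, and each sample left out. The tools were tried on simulated data that held no effect of the replicate number. With fewer changed genes than were called here, the DESeq2 calls held a larger false share than the threshold allows, so edgeR counts stand beside them. Depth was 29699741 to 63613710 counts per sample. The exact interval of the SNAI2 count ratio and the floors (3 counts) cover counting error only. The intervals of log2 fold changes come from the SE of the DESeq2 fits, which also includes the fitted spread between samples.

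Deviations from group means over 12433 genes correlated at 0.495, 0.433 and 0.576 between samples of the same number and at -0.481 to 0.0745 otherwise, a pattern of paired samples. It comes from the data, since the labels do not say what a number shares. The results are from the fit without the block, as the study's methods state none. Blocked values are given where they change the DESeq2 call of a factor or list gene, and blocked edgeR calls are counted at the end.

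The 9 factors and the 8 gene lists were chosen with earlier results of these data known. From each list the text names the 3 largest rises and falls among genes called by DESeq2 with a mean of at least 10 normalised counts and no overlap between groups, and a set of markers always named (CDH1, CDH2, VIM, FN1, EPCAM, OVOL1, OVOL2, GRHL2, ESRP1, ESRP2, TCF3, TCF12 and ID1 to ID4). The rule also takes the 3 genes most like each called factor. A mesenchymal gene that the rule takes is not reported here. Genes outside it are given as singled out after their values were seen, and DSP, MUC1, OCLN, CLDN7 and CLDN4 were chosen for their promoter windows. Gene coordinates and lengths are from GENCODE release 44 on GRCh38, and promoter windows from RefSeq. Fibroblast and leukocyte markers (8 and 5 genes) had 1 gene called higher each, and granulosa cell markers 2 of 8, beside 11.0% of all tested genes.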

Additional observations from a re-analysis of the deposited data

How the results depend on the processing

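SNAI2 and ZEB2 were called higher by every tool and with each sample left out, except that the filter of 10 counts in 3 samples dropped SNAI2 before testing and left 1 factor called higher. The replicate block changed no factor's call: with it DESeq2 gave log2 fold changes of 6.22 for SNAI2 (adjusted p = 1.1e-05) and 2.31 for ZEB2 (adjusted p = 3.0e-06), and edgeR 5.90 and 2.29. It added genes called lower in the lists, with DESeq2 2 cofactors, 3 turnover enzymes and 1 mesenchymal gene, and with edgeR 1, 2 and 1. Over all genes the block raised DESeq2 calls too, from 1.84% to 6.62% lower and from 11.0% to 13.4% higher. With edgeR they went from 1.02% to 5.68% lower and from 9.57% to 13.7% higher. In the lists the block also added calls of higher genes, from 6 to 8 upstream signals with DESeq2 (5 to 7 with edgeR). Other EMT-linked factors went from 4 to 6 with DESeq2 (3 to 6 with edgeR) and epithelial factors from 4 to 5 (3 to 5). With edgeR alone, cofactors went from 1 to 2, epithelial targets from 5 to 7 and mesenchymal genes from 8 to 11. Blocked edgeR called AJUBA (adjusted p = 0.00707), HIF1A (0.0207), MUC1 (0.0432) and CLDN4 (0.0315), which edgeR without the block did not. The genes added by DESeq2, singled out after their values were seen, were STAT3 (adjusted p = 1.6e-04) and EGR1 (0.0143), TBX3 (0.00160) and FOXC1 (0.00504), and KLF4 (0.00424), of which edgeR with the block did not call EGR1 (0.0791).

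Leaving out each sample in turn gave log2 fold changes of 0.13 to 0.64 for SNAI1, 5.47 to 8.22 for SNAI2, -0.89 to -0.32 for SNAI3, -0.70 to -0.13 for TWIST1, 0.09 to 0.40 for ZEB1, 2.02 to 2.85 for ZEB2, -0.42 to 0.19 for PRRX1 and -0.16 to 0.49 for TCF4. TWIST1 passed the threshold only without BRG1 sample 3 (DESeq2 adjusted p = 0.0479), so factors called lower ran from 0 to 1. PRRX1 turned positive without Control sample 2 (0.11) or BRG1 sample 1 (0.19), and TCF4 turned negative without Control sample 1 (-0.08), Control sample 2 (-0.16) or BRG1 sample 3 (-0.12), all without a call. The cause was not tested.

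Cofactors called higher ran from 1 to 2 with a sample left out and were 1 by edgeR, by limma-voom and at an adjusted p under 0.01. Cofactors, turnover enzymes and mesenchymal genes called lower each ran from 0 to 1 with a sample left out. Other EMT-linked factors called higher were 2 by limma-voom. With 2 counts in Control, the size of the SNAI2 fold is poorly bounded, and TWIST2 and several epithelial factors were too low for a change to be seen. Leaving a sample out leaves 2 in its group, and the spread is then pooled over the fit.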
